A study of Homo sapiens with 2 samples.

Results

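The genes of oxidative phosphorylation, complexes I to V, were taken by their symbols in the platform annotation of the array. These were all symbols that start with NDUFA, NDUFB, NDUFC, NDUFS, NDUFV, UQCR, ATP5 or COX followed by a digit, together with SDHA, SDHB, SDHC and SDHD. SDHB was not analysed here, so complex II is described from SDHA, SDHC and SDHD. The rule gave 103 of 19775 genes, with 216 of 54675 probe sets. Of the 103 genes, 78 encode subunits, 17 encode assembly factors of complexes I and IV, and 8 are an inhibitor, a supercomplex factor, pseudogenes or noncoding RNAs that share the letters of the symbol.

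The 5 complexes lie in the inner mitochondrial membrane. Complexes I and II pass electrons from NADH and succinate to coenzyme Q, complex III passes them on to cytochrome c, and complex IV, cytochrome c oxidase, hands them to oxygen. Complexes I, III and IV pump protons as they do so, and complex V, the ATP synthase, lets the protons back through a rotating c ring and makes ATP. A few core subunits are encoded in mitochondrial DNA and the others in the nucleus, and assembly factors that are not part of the finished complexes put them together. Cells of the stomach lining are rich in mitochondria where they secrete acid, while cancer cell lines in culture commonly combine respiration with glycolysis.

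The cells were AGS, an epithelial line from a human gastric adenocarcinoma, and both groups were the same line. In the silenced group, galectin-3 had been knocked down with a small interfering RNA. In the control group it had not. The sources used here give neither what those cells received in its place nor the time after transfection. Each group had 1 one-colour Affymetrix array, so no difference below has a replicate check, and values are described with no tests or p-values.

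LGALS3, which encodes galectin-3, had a signal of 2699.8 in silenced cells and 20206 in control cells, 7.48-fold lower after silencing. All 7 epithelial markers, EPCAM, CDH1, KRT8, KRT18, KRT19, CLDN4 and CLDN7, were above the floor on both arrays, with a summed signal of 112993 in silenced cells and 92475 in control cells. Individually their log2 ratios ran from 0.04 for EPCAM to 1.08 for CLDN4, and their part in the results below was not tested. The 4 leukocyte and the 4 muscle markers named on the array were under the floor on both arrays. So were 5 of 7 fibroblast markers and 2 of 3 endothelial markers, while COL1A1 had 1502.0 in silenced cells and 816.3 in control cells. The floor is the signal that 95% of 135 olfactory receptor probe sets did not exceed, and was 109.5 on the silenced array and 138.4 on the control array. Above it lay 22939 probe sets (42.0%) in silenced cells and 21010 (38.4%) in control cells.

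Signals are MAS5 intensities, which can be set against each other between arrays for 1 probe set but not between probe sets. Each gene took the ratio of its brightest probe set, leaving out the cross-hybridising _x_at kind where it had another. The log2 ratio is silenced minus control. In whole-culture RNA, fewer cells of a kind and less RNA per cell cannot be told apart.

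Promoters are shown for the NDUFB2 and SDHA genes, which had the lowest ratios of all members, and for COX20 and NDUFAF1, which had the highest ratios among the assembly factors. Each is the 300 bases from 250 before to 50 after the gene's start, from RefSeq on GRCh38.p14, written 5′ to 3′ on the strand of the gene. They lie at chr7:140696458-140696757 on the plus strand for NDUFB2, chr5:218070-218369 on the plus strand for SDHA, chr1:244835226-244835525 on the plus strand for COX20 and chr15:41402447-41402746 on the minus strand for NDUFAF1. Capitals mark matches to any of the 4 motifs described next, on either strand.
NDUFB2: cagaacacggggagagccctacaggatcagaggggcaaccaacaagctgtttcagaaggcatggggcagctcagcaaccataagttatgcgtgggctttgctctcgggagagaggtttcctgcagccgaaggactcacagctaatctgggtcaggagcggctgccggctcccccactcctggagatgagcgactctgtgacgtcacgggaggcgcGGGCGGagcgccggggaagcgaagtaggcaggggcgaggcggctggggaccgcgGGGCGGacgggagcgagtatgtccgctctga
SDHA: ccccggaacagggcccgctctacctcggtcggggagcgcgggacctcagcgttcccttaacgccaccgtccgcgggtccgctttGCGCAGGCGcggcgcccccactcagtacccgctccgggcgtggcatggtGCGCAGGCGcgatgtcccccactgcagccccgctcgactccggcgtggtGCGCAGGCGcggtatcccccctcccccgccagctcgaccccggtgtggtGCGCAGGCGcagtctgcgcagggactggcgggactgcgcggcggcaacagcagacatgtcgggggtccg
COX20: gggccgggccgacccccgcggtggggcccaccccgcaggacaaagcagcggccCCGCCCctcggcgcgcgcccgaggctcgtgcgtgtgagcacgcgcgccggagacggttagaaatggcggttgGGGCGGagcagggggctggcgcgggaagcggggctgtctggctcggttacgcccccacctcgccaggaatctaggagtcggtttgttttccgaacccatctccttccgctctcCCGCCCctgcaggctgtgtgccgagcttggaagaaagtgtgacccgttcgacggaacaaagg
NDUFAF1: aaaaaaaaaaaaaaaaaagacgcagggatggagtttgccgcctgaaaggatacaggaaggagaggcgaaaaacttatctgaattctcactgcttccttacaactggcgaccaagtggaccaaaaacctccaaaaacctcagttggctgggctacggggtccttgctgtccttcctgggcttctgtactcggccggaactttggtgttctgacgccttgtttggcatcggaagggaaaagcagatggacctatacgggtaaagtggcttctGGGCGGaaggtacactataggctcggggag

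The 4 motifs were GCGCANGCG for NRF1, a nuclear factor that binds many respiratory gene promoters, CCGGAAG for the ETS family that includes GABPA, AAGATGGC for YY1, and GGGCGG for SP1. The NRF1 letters were in 25 of the 85 member promoters that RefSeq gave (29.4%), and in 8.05% of all 27305 promoters of the same length. The ETS letters were in 23 (27.1%), beside 10.7% of all promoters, and the YY1 letters in 12 (14.1%), beside 3.03%. The SP1 letters were in 50 (58.8%), beside 44.6%. In all, 46 of the 85 held at least 1 of the first 3, and 1 pair of matches to different motifs overlapped among the members. The SDHA promoter above holds 4 NRF1 matches, while those of NDUFB2, COX20 and NDUFAF1 hold 2, 3 and 1 SP1 matches and none of the other motifs.

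Medians were close to 0 in members with and without these letters. Members with the NRF1 letters had a median log2 ratio of -0.03 (n = 23) and those without them 0.05 (n = 53). For the ETS letters the medians were 0.01 (n = 21) and 0.05 (n = 55), for YY1 0.03 (n = 11) and 0.05 (n = 65), and for SP1 0.05 (n = 46) and -0.02 (n = 30). Promoters that share letters are not independent, and a match is a description of the sequence only.

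Nearly all of the oxidative phosphorylation genes had close to the same signal in silenced and control cells. Of the 103 members, 93 were measured, which means above the floor on at least 1 array, and 90 of these were above it on both. None passed 2-fold on the higher side, beside 3.31% of all 10514 genes measured, and 2 (2.15%) passed it on the lower side, beside 3.07%. At 1.5-fold, 3 members (3.23%) were higher, beside 10.6% of all genes, and 5 (5.38%) were lower, beside 10.4%. Another 84 (90.3%) lay within 1.5-fold, beside 75.7% of all genes, and 1 had no direction. The median log2 ratio was 0.05 over the members and -0.02 over all genes, with 52 members above 0 and 40 below it. The members past 1.5-fold were NDUFB2, SDHA, NDUFA10, COX10 and COX11 on the lower side, and ATP5F1C, COX20 and NDUFAF1 on the higher side.

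**Figure D1:**
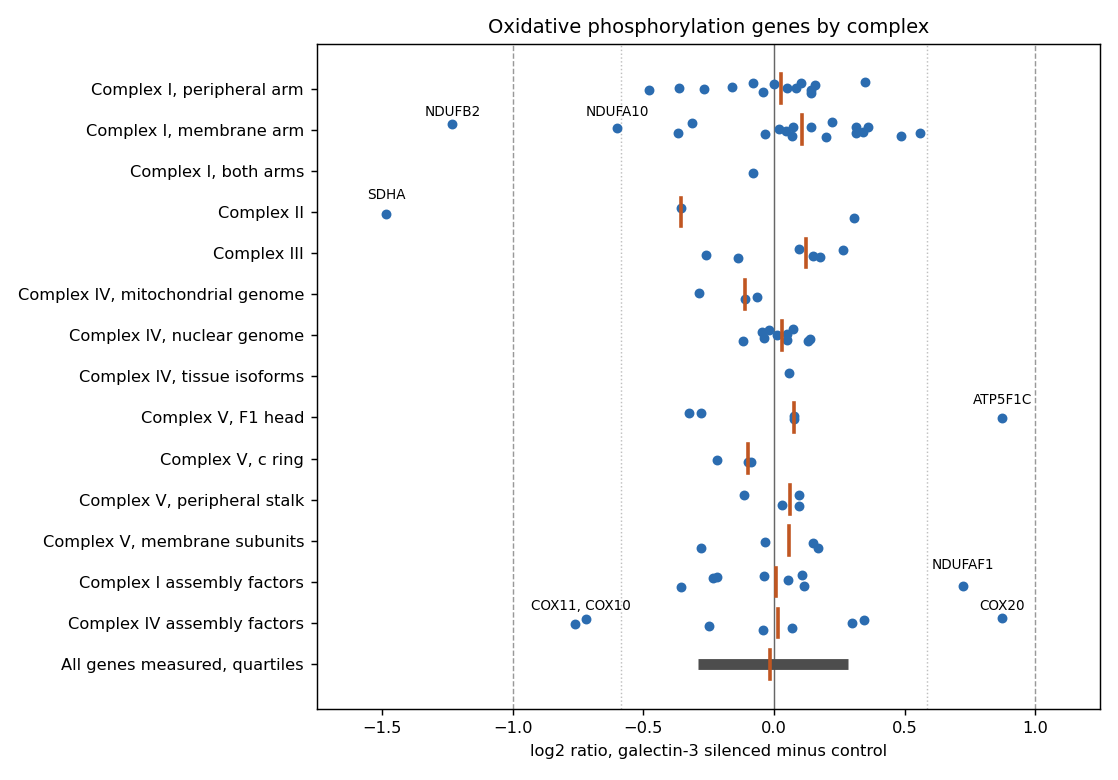
Log2 ratio of signal, galectin-3 silenced minus control, for each subunit and assembly factor measured in both silenced and control cells, grouped by complex and by role. Each point is 1 gene, orange bars are medians of the points drawn, and the grey bar spans the quartiles of all genes measured. The dotted and dashed lines stand at 1.5-fold and 2-fold. Most points lie between the dotted lines, and SDHA and NDUFB2 lie past the lower dashed line.

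The members were also brighter than most genes, and ratios of bright probe sets vary less. A mean log2 signal of 12 or more was reached by 62 members and by 1442 of all genes. Among these bright members 0 passed 2-fold on the higher side, beside 1.04% of the bright genes, and 1 on the lower side, beside 1.8%. At 1.5-fold, 1 was higher, beside 6.45%, and 2 were lower, beside 6.38%. The robust SD of the log2 ratios, from the median absolute deviation, was 0.20 for the bright members and 0.31 for all bright genes. Without the limit on brightness it was 0.21 for the members and 0.42 for all genes above the floor on both arrays. Within 1.2-fold lay 42 of the 62 bright members (67.7%), beside 850 of the 1442 bright genes (58.9%). The spread of the members was thus nearer to that of genes of like brightness than to that of all genes.

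The direction of so small a median depended on how the arrays were scaled. With the hybridization controls at equal level, the median of the members was 0.23 and that of all genes 0.17. With the poly-A controls at equal level, it was -0.18 for the members and -0.25 for all genes. The members' median minus that of all genes was between 0.04 and 0.08 under all 11 alternatives. Scaling to controls shifts all genes alike, so it could not change this difference. The scaling also set the balance of all genes, since 51.9% of those past 2-fold were higher as deposited, 75.9% with hybridization controls equal and 22.7% with poly-A controls equal.

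Complex I, NADH dehydrogenase, is the largest of the 5, with a peripheral arm in the matrix that holds the flavin and the iron-sulphur clusters, and a membrane arm that pumps protons. All 33 of its subunits taken by the rule were measured on both arrays. Their median log2 ratio was 0.07, with 21 above 0 and 12 below it. Of the 33, 31 lay within 1.5-fold, beside 75.7% of all genes. The 14 peripheral arm subunits had a median of 0.03 and a range from -0.48 to 0.35. The 18 membrane arm subunits had a median of 0.11 and a wider range, from -1.23 to 0.56. The 5 core subunits, which bacteria also have, had a median of -0.08, and the 28 supernumerary subunits 0.07.

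NDUFB2, a small supernumerary subunit of the membrane arm, was the lowest member of complex I. Its signal was 5458.0 in silenced cells and 12810 in control cells, 2.35-fold lower with a log2 ratio of -1.23. A second NDUFB2 probe set gave 1859.9 in silenced cells and 5018.8 in control cells, a log2 ratio of -1.43. Both probe sets were thus past 2-fold. Of the 34 members with at least 2 probe sets measured in silenced and control cells, NDUFB2 alone had all of them 1.5-fold lower. The same count over all genes was not made, so how unusual this is was not tested. Another NDUFB2 probe set stayed under the floor in silenced and in control cells. Of all genes above the floor on both arrays, 1.49% had a lower ratio than NDUFB2, whose own ratio stayed between -1.46 and -1.05 over the alternatives.

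NDUFA10, a membrane arm subunit on the matrix side, had 4086.7 in silenced cells and 6191.5 in control cells, 1.52-fold lower. It did not pass 1.5-fold with the hybridization controls equal, at a log2 ratio of -0.42. The median over its probe sets was -0.43. That median takes in a dim probe set whose value of -0.26 comes from the unequal floors, so it does not bear on the call. NDUFS6, a zinc-binding subunit of the peripheral arm, had 7019.7 in silenced cells and 9779.1 in control cells, a log2 ratio of -0.48. NDUFB6 had 5048.2 in silenced cells and 6512.4 in control cells, a log2 ratio of -0.37. NDUFA9, which lies where the arms meet, had 3453.2 in silenced cells and 4445.0 in control cells, a log2 ratio of -0.36. These 3 stayed under 1.5-fold.

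On the other side, NDUFB7, a subunit on the intermembrane face, had the highest ratio of complex I, 0.56, with 2754.9 in silenced cells and 1869.2 in control cells. NDUFB5 had 10346 in silenced cells and 7377.4 in control cells, a log2 ratio of 0.49. NDUFB1 had 19330 in silenced cells and 15058 in control cells, a log2 ratio of 0.36. None of the complex I subunits was 1.5-fold higher, and 4 of its 5 highest, NDUFB7, NDUFB5, NDUFB1 and NDUFB8, are of the NDUFB series of the membrane arm, as is NDUFB2, the lowest. NDUFV1, the core subunit that binds flavin and takes electrons from NADH, was at 6059.7 in silenced cells and 4753.7 in control cells, a log2 ratio of 0.35. Its partner NDUFV2 was at 5671.5 in silenced cells and 5276.7 in control cells, a log2 ratio of 0.10.

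Of the other core subunits, NDUFS7 had 2505.4 in silenced cells and 2648.8 in control cells, a log2 ratio of -0.08, and NDUFS3 had 4865.8 in silenced cells and 5439.9 in control cells, a log2 ratio of -0.16. NDUFS1, which holds several of the iron-sulphur clusters, had 2595.8 in silenced cells and 3123.6 in control cells, a log2 ratio of -0.27. A weaker NDUFS1 probe set gave 413.7 in silenced cells and 686.7 in control cells, a log2 ratio of -0.73. Another was under the floor in silenced cells, at 95.6, and above it in control cells, at 216.9. All NDUFS1 probe sets that gave a direction were thus lower in silenced cells, by unequal amounts. NDUFAB1, the mitochondrial acyl carrier protein, which sits in both arms, was at 17191 in silenced cells and 18156 in control cells.

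NDUFS8, NDUFC2 and NDUFS5 share their probe sets with other annotated symbols, so they were not counted. The brightest NDUFS8 probe set had 5042.4 in silenced cells and 4864.0 in control cells, the brightest NDUFC2 probe set 14943 in silenced cells and 16477 in control cells, and the NDUFS5 probe set 14284 in silenced cells and 14345 in control cells. None of these 3 differed by 1.2-fold.

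Complex II, succinate dehydrogenase, also belongs to the tricarboxylic acid cycle and does not pump protons. Its measured subunits did not move together. SDHA, the flavoprotein that oxidises succinate, had 1303.4 in silenced cells and 3647.6 in control cells, 2.80-fold lower with a log2 ratio of -1.48. No other of the 93 measured members had so low a ratio, and 0.66% of all genes above the floor on both arrays were lower. The value comes from 1 probe set of the _x_at kind, which can also bind related transcripts. A second probe set, annotated to SDHA together with the pseudogenes SDHAP1, SDHAP2 and SDHAP4, gave 297.9 in silenced cells and 296.9 in control cells, a log2 ratio of 0.00. The probe sets therefore differed, and which transcripts each detected was not tested.

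SDHC and SDHD anchor complex II in the membrane. SDHD had 4622.9 in silenced cells and 5906.8 in control cells, a log2 ratio of -0.35. SDHC had 7069.9 in silenced cells and 5709.6 in control cells, a log2 ratio of 0.31. Its 3 other bright probe sets gave log2 ratios of 0.22, 0.28 and 0.33, and all of the bright ones were of the _s_at or _x_at kind. The 2 of neither kind above the floor on both arrays were weak and went the other way. One of these had 331.8 in silenced cells and 587.2 in control cells, a log2 ratio of -0.82, and the other 262.2 in silenced cells and 382.4 in control cells, a log2 ratio of -0.54. Across the subunits of complex II the median was -0.35 (n = 3), which is the value of SDHD. It was below that of all genes under all 11 alternatives, but several of these could not change that. Scaling to controls shifts all genes alike, and the limit to subunits leaves complex II as it is. Without _s_at and _x_at probe sets, SDHA had none and SDHC took its weak probe set at -0.82 (n = 2).

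Complex III, the cytochrome bc1 complex, differed little. UQCR11 had 13791 in silenced cells and 11491 in control cells, a log2 ratio of 0.26. UQCR10 had 17684 in silenced cells and 15655 in control cells, a log2 ratio of 0.18. UQCRB, which binds coenzyme Q, had 18005 in silenced cells and 16224 in control cells, a log2 ratio of 0.15. With the poly-A controls equal, UQCR10 and UQCRB were at -0.06 and -0.08. These small subunits were slightly higher in silenced cells under the other scalings, but the second probe sets of UQCR11 and UQCR10, both weak, were lower, with log2 ratios of -0.62 and -0.22. UQCRC2, a large core protein on the matrix side, was at 11998 in silenced cells and 11212 in control cells, a log2 ratio of 0.10. Its partner UQCRC1 was at 8323.7 in silenced cells and 9158.4 in control cells, a log2 ratio of -0.14. UQCRQ was the lowest of the 6, at 14986 in silenced cells and 17935 in control cells, a log2 ratio of -0.26. The probe set shared by UQCRH and its copy UQCRHL had 17039 in silenced cells and 18076 in control cells, a log2 ratio of -0.09. None of the complex III subunits passed 1.5-fold, and the median was 0.12. This median had no settled direction, since it was -0.08 when each gene took the median over its probe sets, -0.11 with the poly-A controls equal and -0.18 without _s_at and _x_at probe sets, where UQCR11, at -0.62, passed 1.5-fold.

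Complex IV was the most even of the complexes. All 14 subunits above the floor on both arrays lay between -0.29 and 0.14, with a robust SD of 0.09. The catalytic core is made of COX1, COX2 and COX3, which are encoded in mitochondrial DNA, where COX2 is not the cyclooxygenase of the same nickname. COX1 had 46562 in silenced cells and 50284 in control cells, a log2 ratio of -0.11. COX2, which receives electrons from cytochrome c, had 51901 in silenced cells and 54209 in control cells, a log2 ratio of -0.06. COX3, measured by a single _x_at probe set, had 4466.9 in silenced cells and 5454.4 in control cells, a log2 ratio of -0.29. All 3 were slightly lower in silenced cells as deposited, but with the hybridization controls equal COX1 and COX2 were at 0.07 and 0.12, and with the lowess curve COX2 was at 0.01. The COX2 value was the highest signal on the control array.

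The 10 nuclear subunits that most tissues use had a median of 0.03, from -0.12 to 0.14. COX8A had 16308 in silenced cells and 14837 in control cells, a log2 ratio of 0.14. COX6C had 22190 in silenced cells and 20259 in control cells, a log2 ratio of 0.13. COX7C had 4094.0 in silenced cells and 3893.0 in control cells, a log2 ratio of 0.07. At the lower end, COX7B had 16312 in silenced cells and 17690 in control cells, a log2 ratio of -0.12. COX5A and COX5B, which bind the matrix face, had log2 ratios of -0.05 and 0.01.

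Several nuclear subunits of complex IV come as a common form and a form of heart, muscle, lung or testis. COX4I1, the common form, had 14939 in silenced cells and 15135 in control cells, and COX4I2, best known from lung, 294.1 in silenced cells and 282.5 in control cells, with log2 ratios of -0.02 and 0.06. COX6A1 had 24081 in silenced cells and 23251 in control cells, a log2 ratio of 0.05. Its muscle form COX6A2 had 114.4 in silenced cells and 61.5 in control cells, above the floor on the silenced array only, with no direction because the floors differ. COX6B1 had a log2 ratio of -0.04 and COX7A2 of 0.05, while COX6B2, COX7A1, COX7B2 and COX8C were under the floor on both arrays. Among the pairs it is therefore the common form that gave a ratio, with COX4I2 as the exception.

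Complex V, the ATP synthase, had a median of -0.00 over 16 measured subunits of 17, with 8 above 0 and 8 below it. The F1 head makes ATP. ATP5F1A had 21616 in silenced cells and 20477 in control cells, and ATP5F1B, the catalytic subunit, 21563 in silenced cells and 20448 in control cells, each with a log2 ratio of 0.08. ATP5F1E, the smallest, had 19005 in silenced cells and 23823 in control cells, a log2 ratio of -0.33, the lowest of the complex.

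For 2 further subunits of the head the probe sets disagreed. ATP5F1C, the central shaft, counted as 1.83-fold higher because its only probe set not of the _x_at kind had 478.4 in silenced cells and 261.1 in control cells. Its 3 _x_at probe sets were far brighter and even. The brightest had 19543 in silenced cells and 19088 in control cells, and the 3 log2 ratios were 0.01, 0.03 and 0.07. With _x_at probe sets kept, ATP5F1C thus had a log2 ratio of 0.03 and passed no rule. ATP5F1D had 2355.5 in silenced cells and 2858.8 in control cells, a log2 ratio of -0.28, but its _x_at probe set had 135.7 in silenced cells and 744.3 in control cells, a log2 ratio of -2.46. No other member probe set had so low a ratio, and its signal in silenced cells was close to the floor.

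The c ring is built of 1 protein encoded by 3 genes, which differ in the part that directs import. ATP5MC1 had 3730.5 in silenced cells and 3969.0 in control cells, a log2 ratio of -0.09. ATP5MC2 had 7001.5 in silenced cells and 7503.5 in control cells, a log2 ratio of -0.10. ATP5MC3 had 16840 in silenced cells and 19563 in control cells, a log2 ratio of -0.22. All 3 were slightly lower in silenced cells as deposited, but ATP5MC1 and ATP5MC2 were at 0.09 and 0.08 with the hybridization controls equal. A weaker ATP5MC3 probe set had 236.8 in silenced cells and 500.6 in control cells, a log2 ratio of -1.08.

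The peripheral stalk, which holds the head still, had a median of 0.06 over ATP5PB, ATP5PD, ATP5PF and ATP5PO. Its lowest was ATP5PF at -0.11 and its highest ATP5PO at 0.10. Among the membrane subunits, ATP5MG had 1396.4 in silenced cells and 1240.7 in control cells, a log2 ratio of 0.17. The _x_at probe sets of ATP5MG were far brighter and slightly lower in silenced cells, with log2 ratios of -0.08, -0.02 and -0.04. ATP5MK had 21377 in silenced cells and 19266 in control cells, a log2 ratio of 0.15. ATP5ME, measured by the _x_at kind, had 10187 in silenced cells and 12353 in control cells, a log2 ratio of -0.28. ATP5MF was under the floor on its own probe set, and the probe set it shares with ARMC2-AS1 had 11597 in silenced cells and 16364 in control cells, a log2 ratio of -0.50. Apart from ATP5F1C none of the complex V subunits passed 1.5-fold.

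**Figure D2:**
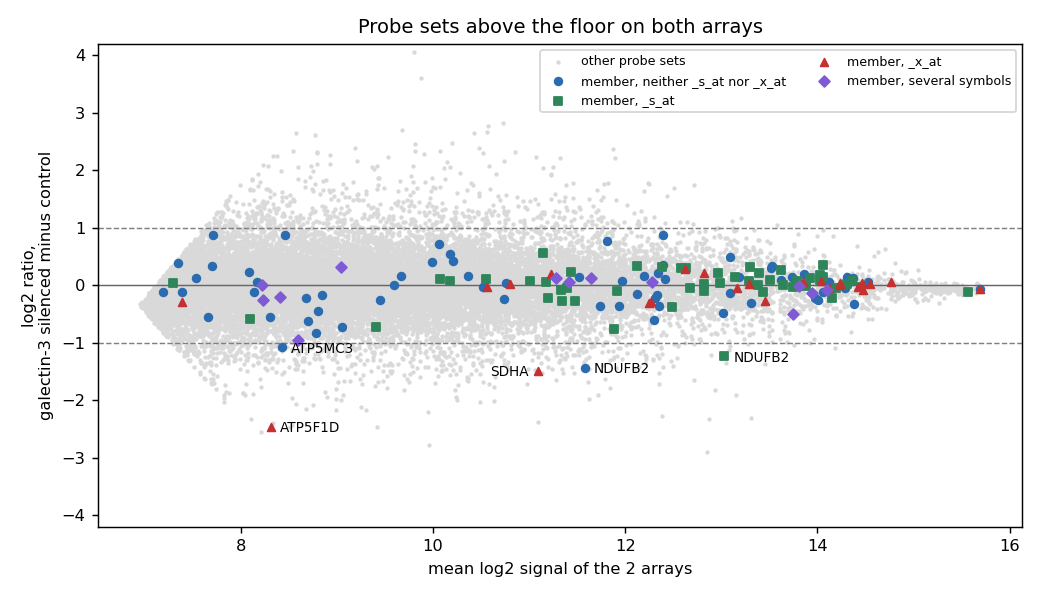
All probe sets measured in silenced and in control cells, members in colour and others in grey, with the mean log2 signal of both arrays on the horizontal axis and the log2 ratio, galectin-3 silenced minus control, on the vertical axis. Shapes mark _x_at, _s_at and other member probe sets and those with several symbols, dashed lines stand at 2-fold, and members past 2-fold are named. The bright probe sets on the right lie close to 0, and most ratios past 1.5-fold, including ATP5F1D at -2.46, lie at weaker signals.

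The probe sets of a member did not always give the same answer. Of the 216, 156 were above the floor on both arrays, 12 on 1 array and 48 on none. Among the 156, 0 passed 2-fold on the higher side and 5 on the lower side. At 1.5-fold there were 5 on the higher side and 12 on the lower side. The same counts over all probe sets of the array were not made, so these are not read as particular to the members. Of the 34 members with several such probe sets, all probe sets were higher in silenced cells in 12, all lower in 11, and they went both ways in 11. The shares among all genes were not counted. Probe sets differed by over 1 in log2 ratio in 3 of the 34, NDUFC1, SDHC and ATP5F1D, beside 340 of 4728 genes. NDUFC1, a small membrane arm subunit, had 9116.8 in silenced cells and 11315 in control cells on its bright probe set, a log2 ratio of -0.31. On its weak one it had 283.8 in silenced cells and 155.4 in control cells, a log2 ratio of 0.87.

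The disagreement lay in weak probe sets. Within a gene, log2 ratios of different probe sets had an SD of 0.36 over the 34 members, beside 0.32 over 4728 genes. Among bright probe sets, by the same limit of 12, it was 0.05 over 14 members, beside 0.15 over 347 genes. The kinds of probe set that can cross-hybridise were centred like the rest. The median log2 ratio was -0.01 over the 24 of the _x_at kind, 0.04 over the 51 of the _s_at kind, 0.03 over the 68 of neither kind and -0.01 over the 13 with several symbols.

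**Figure D3:**
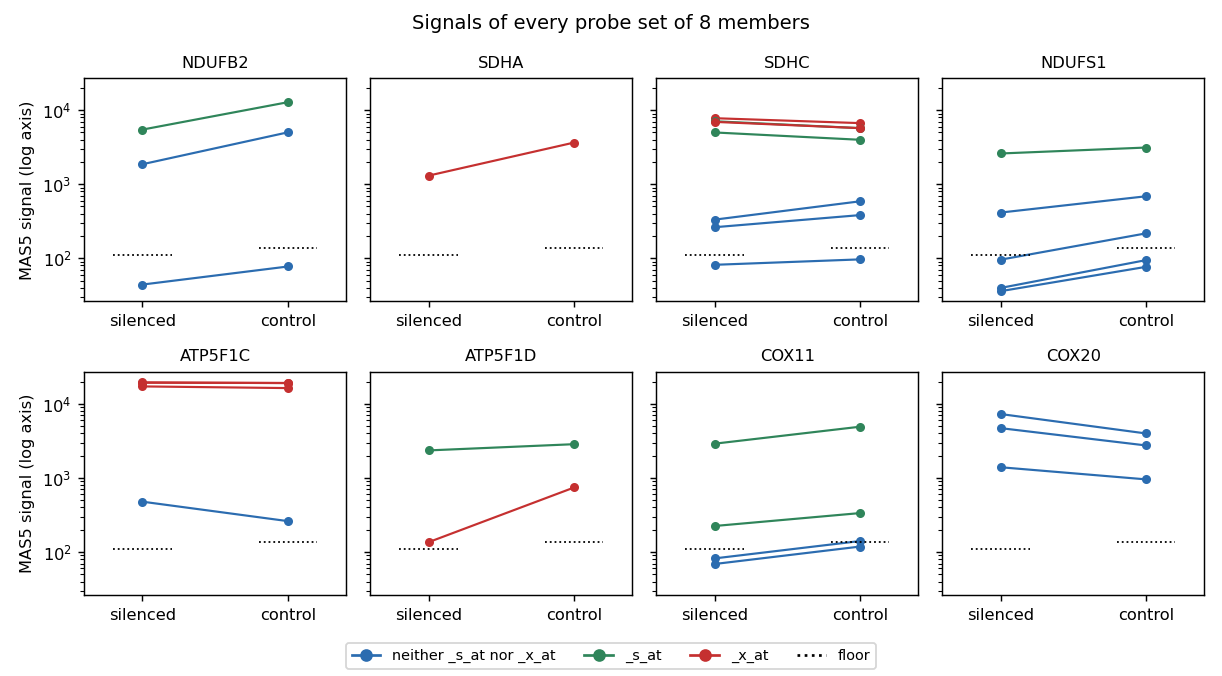
MAS5 signal on a log axis of every probe set of 8 members, silenced on the left and control on the right of each panel. Lines join the values of 1 probe set, coloured by kind, and dotted lines are the floors. The lines of NDUFB2 go up toward control and those of COX20 down. In SDHC the bright and the weak probe sets go opposite ways, while in ATP5F1C the bright ones are nearly level and the weak one goes down toward control.

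The assembly factors varied more than the subunits. Their robust SD was 0.37, beside 0.19 for all subunits, while 58 of the 62 bright members are subunits. Of 16 measured, 2 (12.5%) passed 1.5-fold on the higher side, beside 10.6% of all genes, and 2 (12.5%) on the lower, beside 10.4%. These shares are near those of all genes, and the median was 0.01. COX20, a chaperone of newly made COX2, had 7300.4 in silenced cells and 3988.4 in control cells, 1.83-fold higher. Its 2 other probe sets gave log2 ratios of 0.78 and 0.54, so all 3 were higher in silenced cells. NDUFAF1, which helps build the membrane arm of complex I, had 1371.9 in silenced cells and 830.5 in control cells, 1.65-fold higher, but under 1.5-fold with the poly-A controls equal, at a log2 ratio of 0.49. COX19, a copper-handling protein of the intermembrane space, had 233.7 in silenced cells and 184.0 in control cells, a log2 ratio of 0.34. A dimmer COX19 probe set went the other way. It was under the floor in silenced cells, at 79.6, and above it in control cells, at 148.6.

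COX11 and COX10 were on the lower side. COX11, which delivers copper to COX1, had 2902.8 in silenced cells and 4923.9 in control cells, 1.70-fold lower. A second COX11 probe set had 224.6 in silenced cells and 335.8 in control cells, a log2 ratio of -0.58. COX10, which makes the haem precursor of complex IV, had 531.2 in silenced cells and 873.4 in control cells, 1.64-fold lower. Neither passed 1.5-fold with the hybridization controls equal, where the log2 ratios were -0.58 for COX11 and -0.54 for COX10. The medians over their probe sets, -0.58 and -0.46, did not pass it either. That of COX10 takes in a dim probe set whose value of -0.20 comes from the unequal floors, so it does not bear on the call. That of COX11 takes in a bound of -0.36 from a dim probe set under the floor in silenced cells. The COX11 median therefore does not settle its call. Without _s_at and _x_at probe sets, what remained for both genes was bounds from dim probe sets that did not pass 1.5-fold, and that of COX10 has no direction. COX15, which acts on haem after COX10, had 1183.1 in silenced cells and 1126.2 in control cells, a log2 ratio of 0.07. The haem enzymes thus had unlike ratios. NDUFAF4, a partner of NDUFAF3 in complex I assembly, had 3011.1 in silenced cells and 3854.2 in control cells, a log2 ratio of -0.36. NDUFAF3 had 1453.9 in silenced cells and 1490.9 in control cells, a log2 ratio of -0.04. COX16, which acts on COX2, had 12961 in silenced cells and 10538 in control cells, a log2 ratio of 0.30. The probe set it shares with the readthrough SYNJ2BP-COX16 went the other way, with 278.0 in silenced cells and 535.0 in control cells, a log2 ratio of -0.94. COX17, a copper chaperone, was under the floor on its own probe set, and one shared with POPDC2 had 3347.3 in silenced cells and 3054.6 in control cells.

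ATP5IF1, the inhibitor that stops the ATP synthase from running backwards, had 6801.5 in silenced cells and 5533.4 in control cells, a log2 ratio of 0.30. COX7A2L, which joins complexes III and IV into supercomplexes, had 4712.4 in silenced cells and 5497.2 in control cells, a log2 ratio of -0.22. COX10-DT, a noncoding transcript beside COX10, had 184.7 in silenced cells and was under the floor in control cells, at 116.5. The pseudogene ATP5MC2P1 had 148.4 in silenced cells and was likewise under the floor in control cells, at 111.5. COX6A1P1, NDUFB2-AS1, NDUFV1-DT and NDUFV2-AS1 were under the floor on both arrays. NDUFB2-AS1, antisense to NDUFB2, thus gave no ratio.

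Other genes of the pathway were taken from lists by function. Assembly factors outside the symbol rule had a median log2 ratio of -0.19 over 37 measured of 38 named, with 11 above 0 and 25 below it. None was 1.5-fold higher, beside 10.6% of all genes, and 4 were 1.5-fold lower, beside 10.4%, so the lower count was about that of genes at large. NUBPL, known for delivering iron-sulphur clusters to complex I, had 318.4 in silenced cells and 867.0 in control cells, 2.72-fold lower. SCO1, which delivers copper to COX2, had 1095.3 in silenced cells and 2185.4 in control cells, 1.995-fold lower and so just short of the 2-fold rule. ECSIT, of complex I assembly, had 407.9 in silenced cells and 704.7 in control cells, and ATPAF2, of complex V assembly, 272.8 in silenced cells and 416.7 in control cells, with log2 ratios of -0.79 and -0.61. Each of these 4 was measured by 1 probe set.

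Regulators of mitochondrial gene expression had a median of -0.19 over 19 measured, with 4 above 0 and 15 below it. PPARGC1B, a coactivator of respiratory genes, had 120.5 in silenced cells and 215.8 in control cells, a log2 ratio of -0.84. The signal in silenced cells was close to the floor. TWNK, the helicase that copies mitochondrial DNA, had 465.8 in silenced cells and 755.9 in control cells, a log2 ratio of -0.70. NRF1 itself had 310.4 in silenced cells and 499.8 in control cells, a log2 ratio of -0.69, the lowest of 3 probe sets that reached up to -0.18. Of the 19, 3 were thus 1.5-fold lower, beside 10.4% of all genes, and 0 were 1.5-fold higher, beside 10.6%. TFAM, which packs and transcribes mitochondrial DNA and was named after its value was seen, had 1892.1 in silenced cells and 2751.2 in control cells, a log2 ratio of -0.54, with 4 probe sets from -0.72 to -0.54.

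The medians of both lists were below 0 and below that of all genes under all 11 alternatives. They ran from -0.43 to -0.01 for the assembly factors and from -0.42 to -0.01 for the regulators. Scaling to controls could not change the difference from all genes, and the limit to subunits changes neither list. The remaining lists differed less. Of 18 measured genes of the tricarboxylic acid cycle and pyruvate entry, 0 passed 1.5-fold, with a median of -0.06. The lowest were DLST, with 1662.2 in silenced cells and 2178.1 in control cells, and PDHX, with 2347.8 in silenced cells and 2907.2 in control cells. The 8 carriers and channels had a median of -0.12 and 0 past 1.5-fold. The heart and muscle form of the nucleotide carrier, SLC25A4, had 159.4 in silenced cells and 225.1 in control cells, and the channel VDAC1 10390 in silenced cells and 11999 in control cells. Among cytochrome c and subunits outside the rule, HIGD1A had 15807 in silenced cells and 12431 in control cells, a log2 ratio of 0.35, and CYC1, which encodes cytochrome c1, 7878.3 in silenced cells and 9280.5 in control cells, a log2 ratio of -0.24. All 4 of this list stayed under 1.5-fold.

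**Figure D4:**
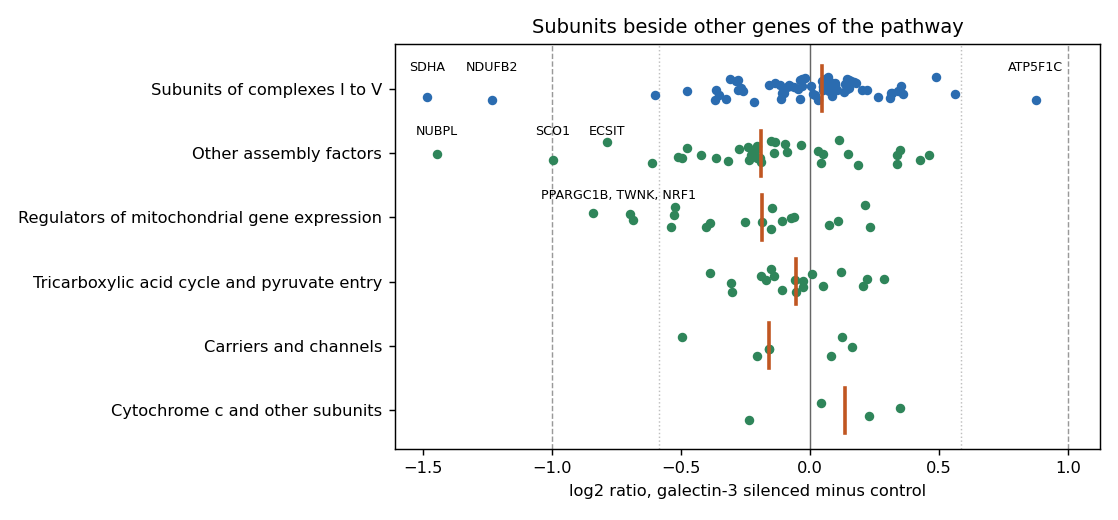
Log2 ratio of signal, galectin-3 silenced minus control, for the subunits of complexes I to V and for 5 lists of other genes of the pathway. Each point is 1 gene measured in both silenced and control cells, and bars are medians of the points drawn. The subunits centre just above 0, and the other assembly factors and the regulators centre near -0.19.

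**Figure D5:**
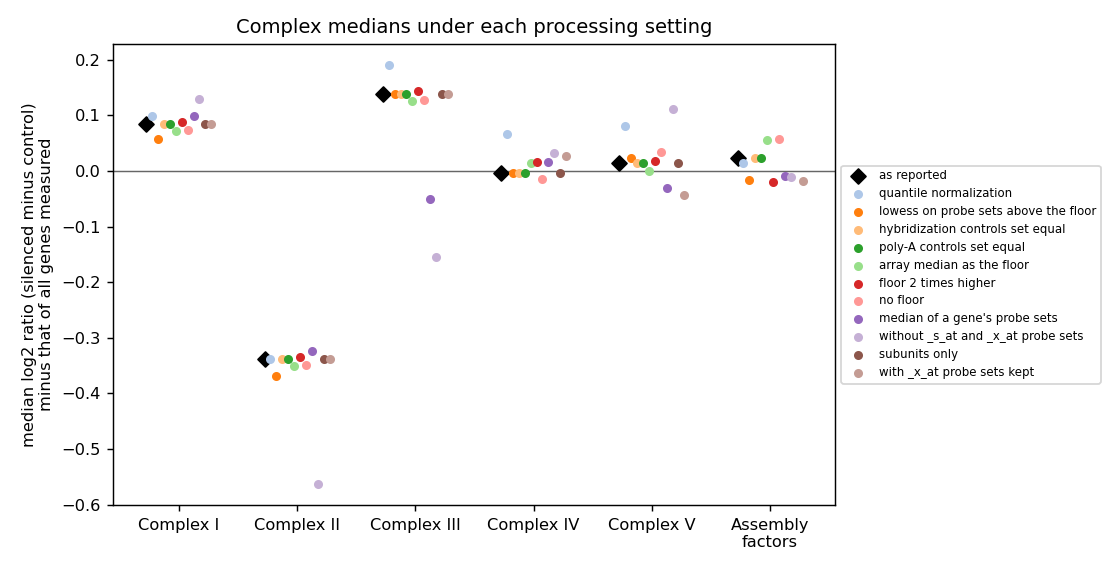
Median log2 ratio, galectin-3 silenced minus control, of each complex and of the assembly factors, minus the median of all genes measured, as reported (diamonds) and under each alternative (circles). Complex II lies below 0 in each setting and complex I above 0, but scaling to controls and the limit to subunits could not change these differences. Complex III runs from -0.15 to 0.19, and complexes IV and V and the assembly factors lie on both sides of 0 as well.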

How the data were processed

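AGS RNA was labelled with biotin and hybridised to 2 one-colour Affymetrix arrays, 1 per group, per the labels' protocols. Array titles gave the groups. The values are linear intensity values that the authors computed with MAS5, according to the submitters' processing notes. Its version, scaling target and any filter are not given there. MAS5 works on 1 array at a time, which leaves weak signals noisy, and its scaling to a common mean would hide a change in total RNA. With 2 arrays the number of arrays limits how precise any value can be.

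Probe sets were named from the platform annotation. It gives 1 symbol for 41097 probe sets, several for 1801 and none for 11777, and those with several or none named no gene. All 103 members matched the RefSeq table of GRCh38.p14 by gene identifier, and 0 symbols changed. Lower signals were set to the floor. A gene under it on 1 array therefore has a bound, which has no direction where the floors' difference could give it, as for 352 genes and 1 member. A gene under it on both has no ratio. Genes past 2-fold or 1.5-fold were counted by size alone.

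The members, lists, motifs and rules were chosen with earlier results of these data known, so no count here is independent support. By rule, both signals are given for members past 2-fold, the 3 highest and 3 lowest of complexes I, III, IV and V and of the assembly factors, all of complex II, paralogue pairs, and members whose probe sets differ by over 1 in log2 ratio. Of other lists, up to 4 genes past 1.5-fold are named, or the 2 furthest from 0. Other genes were chosen after their values were seen. The alternatives were other scalings, floors, choices of probe set and members. The procedure was tested on simulated data. Python 3.11.15 was used with pandas 2.3.3, numpy 2.4.6, statsmodels 0.14.6 and matplotlib 3.10.9.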

Additional observations from a re-analysis of the deposited data

How the results depend on the processing

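The 7 medians (all members, each complex, assembly factors) and the 4 counts of members past a fold were recomputed under the alternatives. A count was called moved if it changed by over 1.5-fold, or to or from 0. A median was called moved if it changed by at least 0.32, the SD between probe sets of 1 gene. Of 120 recomputed values, 108 were not called moved. No median was, but the limit is wide beside medians this small, so the 108 do not show that the medians are stable. With it, complex III at 0.12 and -0.18 counts as unmoved. The limit to subunits also leaves the medians of the complexes as they are. The other 12, all counts, are these. With the hybridization controls set equal, 2 members were at least 2-fold higher (0 as reported) and 6 at least 1.5-fold higher (3 as reported). At least 1.5-fold lower were 2 members (5 as reported). Of all genes, 5.48%, 17.9% and 6.03% then passed these folds, beside 3.31%, 10.6% and 10.4% as reported. With the poly-A controls set equal, 10 members were at least 1.5-fold lower, beside 20.7% of all genes. With the array median as the floor, 5 members were at least 1.5-fold higher, beside 11.9% of all genes. With no floor, 12.5% of all genes passed 2-fold on the higher side and 12.4% on the lower. At 1.5-fold these shares were 21.2% and 21.0%. Of the members, 2 then passed 2-fold on the higher side and 6 on the lower. At 1.5-fold, 7 members were higher and 9 lower, since members too dim to be measured then enter. Each moved count given so far went in the same direction as the share of all genes, so its direction is not particular to the members. Whether the size of the move is particular to them was not tested. When the _s_at and _x_at kinds were dropped, 66 members were measured. Of these, 1 was at least 2-fold lower (2 as reported), because SDHA then has no probe set. The share of all genes was 3.48%, beside 3.07% as reported. With subunits only, 73 members were measured. Of these, 1 was at least 1.5-fold higher, beside 10.6% of all genes, and 3 were at least 1.5-fold lower, beside 10.4%. Keeping _x_at probe sets was an alternative chosen after seeing the data, and it takes ATP5F1C off the higher side. The lower calls of COX10, COX11 and NDUFA10 end with the hybridization controls equal. They also end with the median over probe sets, and those of COX10 and COX11 without _s_at and _x_at probe sets. For NDUFA10 and COX10 these other endings rest on dim probe sets whose values come from the unequal floors. For COX11 they take in a dim probe set that gave only a bound. The higher call of NDUFAF1 ends with the poly-A controls equal. Medians of complexes III, IV and V and of the assembly factors lay on both sides of 0 over the alternatives, from -0.18 to 0.31, from -0.25 to 0.16, from -0.24 to 0.18 and from -0.23 to 0.19, so they have no settled direction. Median log2 ratios were -0.18 for 18 hybridization controls (SD 0.09) and 0.23 for 19 poly-A controls (SD 0.23). Weak signals limit what can be read for COX10, COX19, PPARGC1B and ATPAF2. No paired analysis was possible because each group has 1 array.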
